A study of Mus musculus with 14 samples.

Results

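Reticulocyte maturation genes were followed across blood-forming tissues of the mouse. They are 7 genes taken by symbol from a list of late erythroid clearance and maturation factors, Bnip3l, Trim58, Trim10, Ube2l6, Ube2o, Xpo7 and Bpgm, out of 19465 genes measured in the sections of a C1qa cross and 32589 features in the sections of purchased mice, and all 7 were in both tables. The rule takes them by name, and they were chosen with earlier results of these data known. Gene expression was measured on 14 formalin-fixed, paraffin-embedded sections with the Visium probe assay, in which barcoded spots each collect the RNA of several cells. Purchased wild-type C57BL/6 mice gave 1 section each of fetal liver at E13.5 and at E14.5, of bone marrow at P8 and at 89 weeks, of adult spleen, and of leg bone marrow from a 6-month mouse whose bone was treated with 0.5 M EDTA for 5 days. All bone marrow came from leg bones, and that of the 89-week mouse was cryosectioned and freed of bone, so that age and preparation cannot be told apart. Matings of C1qa heterozygous mice gave 8 sections without treatment, 2 each of wild-type E14.5 fetal liver, C1qa knockout E14.5 fetal liver, wild-type spleen and C1qa knockout spleen, the spleens from mice of 3 months. Every cell of the knockouts lacks the targeted gene, so no difference can be assigned to a single cell type, and the labels do not state whether the 2 spleens of a genotype came from litters in common.

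When an erythroblast has expelled its nucleus, the remaining reticulocyte still holds mitochondria, ribosomes and most of its protein repertoire, and it becomes a red cell by removing them. Mitochondria leave through selective autophagy, soluble proteins and ribosomes are tagged with ubiquitin and degraded by the proteasome, and the nucleus is condensed before it is lost. Of the 7 genes, Bnip3l encodes the outer mitochondrial membrane receptor (NIX) that recruits the autophagy machinery in reticulocytes. Trim58 and Trim10 encode erythroid RING-finger proteins, Trim58 being a ubiquitin ligase that targets dynein during enucleation. Ube2l6 and Ube2o encode ubiquitin-conjugating enzymes, the latter tagging ribosomal proteins for removal. Xpo7 encodes a nuclear transport receptor that takes part in nuclear maturation, and Bpgm encodes the mutase that makes the bisphosphoglycerate by which red cells lower the oxygen affinity of haemoglobin.

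By the RefSeq annotation of GRCm38.p6, Bnip3l lies at chr14:66985238-67008877, Trim58 at chr11:58640465-58652404, Trim10 at chr17:36869496-36877833, Ube2l6 at chr2:84798828-84810003, Ube2o at chr11:116537740-116581503, Xpo7 at chr14:70662126-70770864 and Bpgm at chr6:34476356-34505136. Promoter sequences of 300 bases, from 250 before to 50 after the start in the RefSeq promoter table (for Trim10 a start inside the interval above), were matched for 4 of the 7. All 4 are shown. They are on the plus strand at chr17:36869324-36869623 for Trim10, chr11:58640215-58640514 for Trim58, chr2:84798578-84798877 for Ube2l6 and chr6:34476106-34476405 for Bpgm, written 5′ to 3′. Capitals mark the letters GATAA on either strand, the core bound by GATA factors, or CCNCNCCC on either strand, the CACCC type of box bound by KLF factors.
Trim10: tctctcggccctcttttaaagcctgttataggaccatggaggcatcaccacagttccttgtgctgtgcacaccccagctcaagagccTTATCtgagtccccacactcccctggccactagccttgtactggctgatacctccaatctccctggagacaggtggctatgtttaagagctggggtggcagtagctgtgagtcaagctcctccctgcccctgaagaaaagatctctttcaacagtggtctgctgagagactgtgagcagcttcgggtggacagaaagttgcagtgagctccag
Trim58: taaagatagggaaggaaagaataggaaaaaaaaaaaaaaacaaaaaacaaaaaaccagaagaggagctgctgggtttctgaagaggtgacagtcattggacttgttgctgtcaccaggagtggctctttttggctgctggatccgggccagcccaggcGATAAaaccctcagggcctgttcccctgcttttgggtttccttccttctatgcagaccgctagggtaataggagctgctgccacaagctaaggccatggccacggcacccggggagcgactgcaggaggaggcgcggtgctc
Ube2l6: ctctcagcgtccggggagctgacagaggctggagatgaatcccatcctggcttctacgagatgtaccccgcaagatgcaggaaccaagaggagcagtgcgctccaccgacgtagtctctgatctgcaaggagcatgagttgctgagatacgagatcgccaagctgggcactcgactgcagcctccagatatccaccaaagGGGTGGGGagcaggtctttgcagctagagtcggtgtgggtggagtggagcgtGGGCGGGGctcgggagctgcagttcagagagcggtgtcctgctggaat
Bpgm: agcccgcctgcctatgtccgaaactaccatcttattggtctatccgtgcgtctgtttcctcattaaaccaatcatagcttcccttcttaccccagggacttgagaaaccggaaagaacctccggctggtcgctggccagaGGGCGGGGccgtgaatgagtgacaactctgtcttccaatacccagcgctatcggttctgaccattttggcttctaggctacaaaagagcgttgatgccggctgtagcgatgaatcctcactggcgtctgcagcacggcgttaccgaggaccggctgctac
The GATAA core was found in the windows of Trim10 and Trim58, once each. In Trim10 it stands on the opposite strand 163 bases before the start and extends to the longer letters AGATAA, and in Trim58 it stands 92 bases before the start. Over 32544 promoter windows of the same length, 25.3% held GATAA and 11.2% held AGATAA. The letters CCNCNCCC, which 49.7% of all windows held, were found in those of Ube2l6 and Bpgm and in neither Trim window. Of these matches GGGTGGGG in Ube2l6 holds CACCC itself on the opposite strand, and GGGCGGGG in Ube2l6 and Bpgm does not. The shorter letters CACCC alone, which were not marked, also stand in both Trim windows as printed. Their share over all windows was not counted.

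Levels are given as CPM, the UMIs (counted molecules) of a gene per 1000000 UMIs of all genes, summed over the in-tissue spots of a section with at least 1000 detected genes. Probe counts do not scale between genes, so levels are compared between sections of 1 gene and not between genes. Purchased and cross sections had different feature tables, so in orders that mix them the set cannot be told apart from tissue or stage. Sections held 4225805 to 56182915 UMIs in 491 to 2320 such spots, except the EDTA-treated bone marrow with 37167 UMIs in 15 spots. C1qa had 1 or 2 UMIs in each knockout section against 1023 to 4343 in the wild-type sections of the cross. Some sections held tissue beside the organ on the label. Spots with at least 0.5% of their UMIs in 8 hepatocyte genes made up 94.4% and 96.6% of wild-type and knockout fetal liver 2 but 29.4% and 62.1% of wild-type and knockout fetal liver 4, and pancreas spots made up 1.88% to 2.99% of 3 of the 4 cross spleens and none of wild-type spleen 1. The 16 erythroid reference genes (among them Alas2, Slc4a1 and Epb42, none of the 7) summed to 4518 and 1736 CPM in the wild-type spleens, 597 and 946 CPM in the knockout spleens and 668 CPM in the purchased spleen, against 4778 to 14234 CPM in the fetal livers of the cross. Wild-type spleen 1 stood apart from the other spleens in this sum, so results in spleen are also given without it. In such mixed spots fewer erythroid cells and less RNA per erythroid cell cannot be told apart.

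Trim10 was highest in the 2 purchased fetal livers. Its level was 449.5 CPM at E13.5 and 542.7 CPM at E14.5 in the purchased livers, and 243.2 and 91.4 CPM in the wild-type livers 2 and 4, against 318.5 and 137.1 CPM in the knockout livers. Bone marrow had 143.7 CPM at P8, 152.7 CPM at 89 weeks and 403.6 CPM in the 15 spots of the EDTA-treated section. In spleen it was 138.7 and 45.9 CPM in the wild types, 7.8 and 18.8 CPM in knockouts 1 and 2, and 15.8 CPM in the purchased section. The knockout and purchased spleens were thus the lowest sections for this RING-finger gene, the purchased livers were the highest, and wild-type spleen 1 stood near the knockout liver 4. The sets differed at the same stage. Per 1000 erythroid reference UMIs Trim10 had 44.3 UMIs in the purchased E14.5 liver, against 19.5 and 19.1 in the wild-type livers 2 and 4.

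Trim58 was low in the same 3 spleens. It was at 36.0 CPM in the E13.5 and 43.0 CPM in the E14.5 purchased liver, and at 42.4 and 13.3 CPM in the wild-type livers 2 and 4, against 51.9 and 19.4 CPM in the knockout livers. The P8 bone marrow had 25.9 CPM and the 89-week bone marrow 40.7 CPM. Wild-type spleens held 50.4 and 29.6 CPM, within the fetal liver range, whereas the knockout spleens held 7.5 and 6.9 CPM and the purchased spleen 3.1 CPM, the last from 48 UMIs (95% Poisson interval 2.31 to 4.16 CPM, counting error only). The 6 UMIs of the EDTA-treated bone marrow gave 161.4 CPM with an interval of 59.2 to 351 CPM. The 3 low spleens did not overlap with any other section.

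Ube2l6 was at 608.0 and 595.4 CPM in the purchased E13.5 and E14.5 livers. In the cross it reached 647.3 CPM in wild-type and 706.2 CPM in knockout fetal liver 2 and 247.6 and 295.4 CPM in number 4. It was at 736.6 CPM in 89-week and 255.2 CPM in P8 bone marrow and at 1211 CPM in the EDTA-treated section. The spleens held 549.7 and 186.5 CPM in wild types, 91.5 and 162.0 CPM in knockouts and 106.2 CPM in the purchased section. Wild-type spleen 1 stood between the number 4 and the number 2 livers, and the other 4 spleens were below every fetal liver.

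Ube2o and Xpo7 had their highest levels in the number 2 livers of the cross. Ube2o was at 273.6 CPM there in wild type and 227.0 CPM in knockout, at 88.7 and 75.2 CPM in the number 4 livers, and at 150.1 and 145.2 CPM in the purchased E13.5 and E14.5 livers. Bone marrow had 78.8 CPM at P8, 62.2 CPM at 89 weeks and 134.5 CPM after EDTA from 5 UMIs, and spleens had 156.1 and 55.4 CPM (wild type), 45.2 and 87.3 CPM (knockout) and 33.1 CPM (purchased). The spleens of the 2 genotypes overlapped for this conjugating enzyme. Xpo7 was at 629.3 and 595.1 CPM in the number 2 and 139.2 and 99.7 CPM in the number 4 livers, wild type first, and at 283.9 and 366.0 CPM in the E13.5 and E14.5 purchased livers. It was at 102.2 CPM in P8, 132.6 CPM in 89-week and 484.3 CPM in EDTA-treated bone marrow, and at 189.3 and 86.8 CPM in wild-type, 73.5 and 90.3 CPM in knockout and 57.6 CPM in purchased spleen. Again the spleens overlapped, and the gap between the number 2 and number 4 livers was wider than that between genotypes.

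Bpgm had a spleen level above all 6 fetal livers in 1 section. Wild-type spleen 1 had 868.8 CPM and wild-type spleen 2 248.0 CPM, the knockout spleens had 151.1 and 282.3 CPM and the purchased spleen 83.4 CPM. Fetal livers had 466.5 and 134.7 CPM (wild type), 403.6 and 91.0 CPM (knockout), and 188.9 CPM at E13.5 and 185.1 CPM at E14.5 in purchased mice. Bone marrow held 171.8 CPM at P8, 528.0 CPM at 89 weeks and, from 53 UMIs, 1426 CPM in the EDTA-treated section. Wild-type spleen 1 aside, the spleens lay within the range of the fetal livers or just below it.

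Bnip3l, the mitochondrial receptor, spanned the narrowest fold range of the 7, from 36.4 CPM in purchased spleen to 112.9 CPM in 89-week bone marrow. It was at 102.3 and 56.1 CPM in the wild-type spleens, while the knockout spleens had 51.2 and 65.5 CPM. Wild-type livers 2 and 4 had 75.6 and 44.9 CPM, the knockout livers 89.4 and 67.0 CPM, and the purchased E13.5 and E14.5 livers 58.7 and 70.1 CPM. P8 bone marrow had 40.2 CPM and the EDTA-treated section 107.6 CPM from 4 UMIs, so liver, marrow and spleen all overlapped.

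For all 7 genes the ranges of wild-type and knockout fetal livers overlapped (of all genes 2.45% had both knockouts below and 7.46% both above). So did those of the 4 fetal livers and 4 spleens of the cross, where 27.3% of all genes had every fetal liver below and 9.95% every fetal liver above. By CPM, Ube2o, Xpo7 and Bpgm were lower and Bnip3l, Trim58, Trim10 and Ube2l6 higher in the knockout liver of both litters. The test of this difference is given below. The 16 erythroid reference genes also summed higher in the knockout livers. They were at 14234 against 12462 CPM in number 2 and 7333 against 4778 CPM in number 4. Per UMI of these genes, Ube2o, Xpo7, Bpgm and Ube2l6 were lower in the knockout liver of both litters. Bnip3l, Trim58 and Trim10 were then higher in number 2 and lower in number 4. The part of erythroid content in the CPM directions was not tested. In spleen the knockouts were below both wild types for 3 genes, Trim10, Trim58 and Ube2l6. By CPM this held for 51.5% of all genes and the reverse for 18.8%, so the count of 3 of 7 says nothing particular about these genes, and the tests below use normalised counts.

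**Figure D1:**
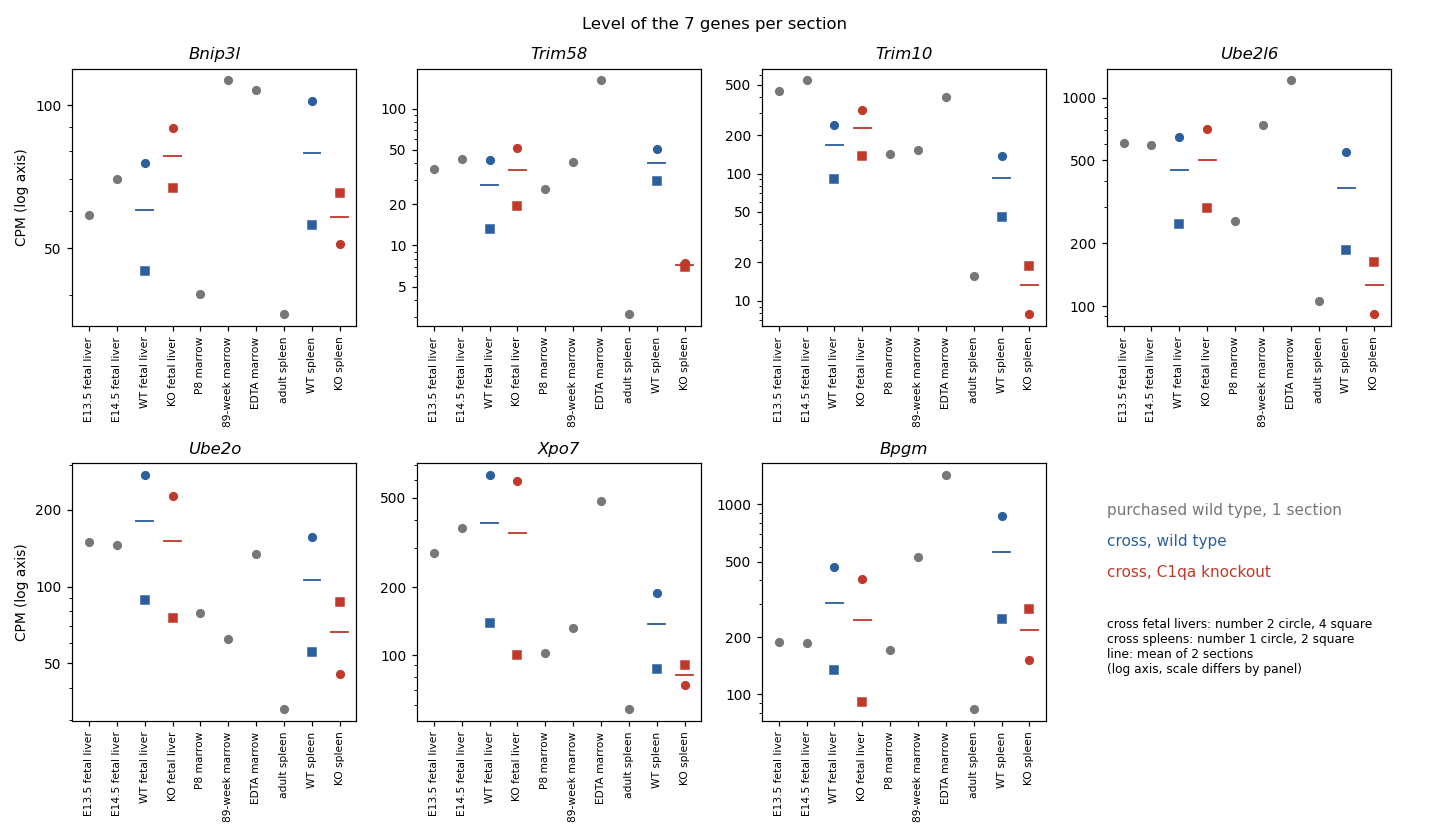
Levels of the 7 genes in CPM (log axis) in each of the 14 sections, grouped by tissue and genotype, with grey points for purchased wild-type sections, blue for wild types and red for knockouts of the cross and a line at the mean of 2 sections. Trim10 and Trim58 of the knockout spleens (7.8 to 18.8 and 6.9 to 7.5 CPM) sit below both wild-type spleens, while the wild-type and knockout fetal livers overlap in every panel.

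Single purchased sections of the same tissue were set side by side with a 95% exact interval that covers counting error only. From E13.5 to E14.5, the ratio of levels was between 0.967 (Ube2o, 0.935 to 1.00) and 1.29 (Xpo7, 1.26 to 1.32), and Trim10 stood at 1.21 (1.19 to 1.23). From P8 to 89-week bone marrow it was 3.07 for Bpgm (2.94 to 3.21), 2.89 for Ube2l6 (2.78 to 2.99) and 2.81 for Bnip3l (2.56 to 3.08), then 1.57 for Trim58 (1.37 to 1.80) and 1.30 for Xpo7 (1.21 to 1.39), but 1.06 for Trim10 (0.99499 to 1.13) and 0.790 for Ube2o (0.715 to 0.872). Beyond counting error 5 genes were thus higher and Ube2o lower in the older section. The P8 section also held muscle, bone and cartilage, whose 8 genes summed to 92329 CPM against 230 CPM at 89 weeks, and the 89-week section held 27775 CPM of 8 neutrophil genes against 5744 CPM. Per UMI of the 16 erythroid reference genes the same ratios were 2.06 for Bpgm, 1.93 for Ube2l6, 1.88 for Bnip3l, 1.05 for Trim58, 0.869 for Xpo7, 0.712 for Trim10 and 0.530 for Ube2o. With 1 section per age there is no replicate check.

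The place of the 7 genes within the tissue was examined by ranking the spots of each cross section by their share of UMIs in the erythroid reference genes and summing the highest 25% (erythroid-rich) and the lowest 25% (erythroid-poor). In the 4 spleens all 7 genes were higher in the erythroid-rich spots of every section. Trim10 was at 374.5 against 15.6 CPM (rich against poor) in wild-type spleen 1, 147.2 against 4.1 CPM in wild-type spleen 2, 27.1 against 2.2 CPM in knockout spleen 1 and 64.0 against 1.6 CPM in knockout spleen 2. Bpgm was at 2065 against 155.6 CPM, 672.3 against 89.0 CPM, 451.6 against 58.0 CPM and 937.9 against 55.7 CPM in the same order. Xpo7 followed with 426.4 against 65.7 CPM in wild-type spleen 1 and 179.5 against 55.9 CPM in wild-type spleen 2, and with 91.2 against 66.5 CPM and 130.2 against 74.7 CPM in the knockouts. Every section had the same direction, and the fold ranged over the 4 spleens from 12.2 to 40.4 for Trim10 and from 1.36 to 2.83 for Bnip3l.

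With each section as a block, all 7 genes rose in erythroid-rich spots of spleen by the edgeR quasi-likelihood test at a Benjamini-Hochberg adjusted p under 0.05, where 11.8% of 17593 genes tested were called, 7.37% higher and 4.47% lower. The log2 differences were 4.84 ± 0.20 (SE) for Trim10, 3.50 ± 0.23 for Bpgm, 2.99 ± 0.27 for Ube2l6, 2.82 ± 0.28 for Ube2o, 2.16 ± 0.32 for Trim58, 1.47 ± 0.36 for Xpo7 and 1.17 ± 0.20 for Bnip3l. Adjusted p in edgeR ran from 4.05e-06 for Trim10 to 0.0279 for Xpo7. Their median of 2.82 stood beside 0.03 over all genes and 4.64 over the 16 reference genes, which defined the split. Of the other lists, 4 of 17 mitophagy and autophagy genes rose (Gabarapl1, Optn, Gabarapl2 and Ulk1, by 0.57 to 1.33), as did 2 of 10 genes of the UBE2H and CTLH ubiquitin ligase (Ypel5 and Ranbp10), 4 of 10 of enucleation and nuclear condensation, 2 of 11 of glycolysis and 3 of 14 of other ubiquitin and proteasome genes, and no gene of these 5 lists fell. Of 9 hypoxia genes 2 rose and 2 fell, and of 9 interferon-stimulated genes 1 rose and 1 fell. In the same spots all 8 neutrophil genes and 9 of 10 macrophage genes also rose, the macrophage genes summing to 3346 to 4438 CPM in rich against 998 to 1491 CPM in poor spots, and 3 of 8 lymphocyte genes fell. Their part in the result was not tested. The calls of 6 genes held in all 4 edgeR fits that left out 1 spleen, but without wild-type spleen 2 the adjusted p of Xpo7 was 0.126, and with DESeq2 it was 0.0685.

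In the fetal livers Bnip3l, Bpgm, Ube2o and Trim58 rose in erythroid-rich spots, by 0.90 ± 0.12, 1.27 ± 0.21, 0.78 ± 0.17 and 2.24 ± 0.59 on the log2 scale (edgeR adjusted p 0.0113, 0.0191, 0.0341 and 0.0492), where 18.3% of 13405 genes tested were called, 6.47% higher and 11.8% lower. Trim10 at 3.72 ± 1.42, Ube2l6 at 2.90 ± 0.91 and Xpo7 at 0.81 ± 0.26 did not pass the threshold (edgeR adjusted p 0.104, 0.0707 and 0.0721). Of the 16 erythroid reference genes, which defined the split and had a median of 3.76, 0 passed in edgeR (15 at an unadjusted p under 0.05, 16 by DESeq2), and 5 of 10 macrophage genes rose, whose part in the result was not tested. The erythroid-poor spots of the number 4 sections were nearly free of liver, with 8 hepatocyte genes summing to 96.0 CPM in wild type and 171 CPM in knockout against 15545 and 14943 CPM in the rich spots. In that tissue Trim10 was at 2.8 and 3.6 CPM, Trim58 at 2.1 and 5.3 CPM and Ube2l6 at 28.0 and 28.3 CPM, wild type first. Bnip3l stood at 39.99 and 53.8 CPM there against 54.6 and 78.2 CPM in the rich spots, Ube2o at 79.9 and 89.3 against 112 and 82.9 CPM, Xpo7 at 116.1 and 145.6 against 178 and 104 CPM, and Bpgm at 84.3 and 60.2 against 218 and 120 CPM. UMIs of these 4 genes thus also came from tissue with few erythroid UMIs. When only hepatocyte spots were split, an alternative added after the data were seen, all 7 genes rose, by 0.69 for Bnip3l to 1.46 for Trim10 (edgeR adjusted p 0.0166 to 0.0359), where 7.11% of genes were called higher and 6.91% lower. Without wild-type or without knockout fetal liver 4 none of the 7 passed in edgeR, and the number of genes called fell from 2454 to 199 and 361. The call of Ube2o was lost in all 4 fits that left out 1 liver (edgeR adjusted p 0.0632 to 0.157). Trim58 passed only without wild-type fetal liver 2 (edgeR adjusted p 0.0274, against 0.0726 without knockout fetal liver 2), and Bnip3l and Bpgm passed without either number 2 liver. Upper-quartile scaling moved the share of calls that were higher from 35.3% to 21.0%.

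**Figure D2:**
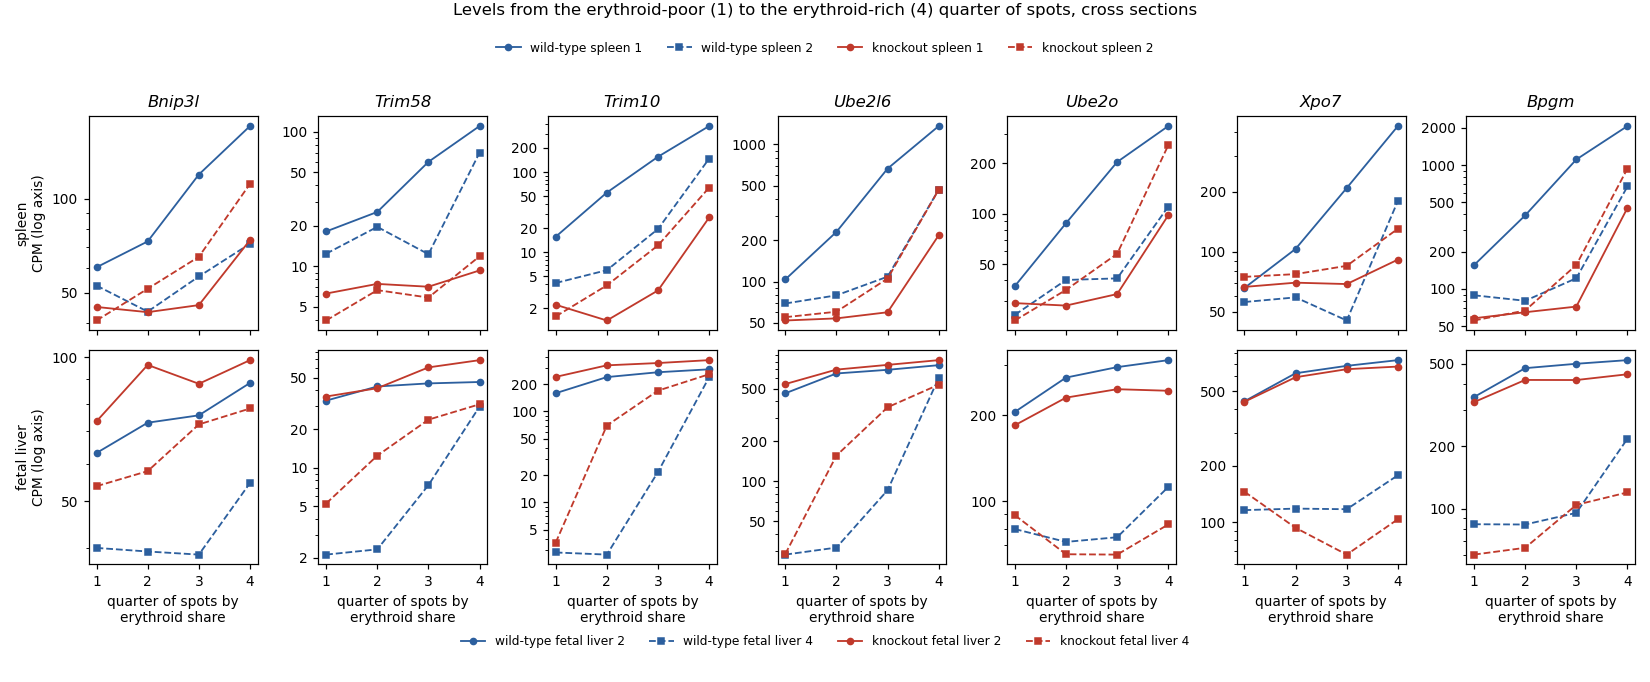
Levels in CPM (log axis) over 4 equal parts of the spots from erythroid-poor (1) to erythroid-rich (4), with a panel per gene for the 4 spleens (top) and 4 fetal livers (bottom) of the cross and a line per section. In spleen every line ends above its start, and in the number 4 fetal livers Trim10 climbs from 2.8 and 3.6 to 238.2 and 256.6 CPM while Xpo7 goes from 116.1 to 178 CPM in wild type and from 145.6 to 104 CPM in knockout.

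The erythroid-rich spots also showed that the number 2 and number 4 livers differed in some of the 7 genes more than in erythroid content. The median share of erythroid reference UMIs in these spots was 1.26 times higher in wild-type and 1.37 times higher in knockout fetal liver 2 than in number 4. Trim10 was 1.22 and 1.43 times and Ube2l6 1.25 and 1.53 times higher. Ube2o was higher by 2.78 and 2.94 times, Bpgm by 2.39 and 3.71 times and Xpo7 by 4.12 and 6.53 times, wild type first. The 2 numbers are litters in the study. Their sections also differed in depth per spot, with medians of 8716 and 5170 UMIs in wild-type and knockout fetal liver 2 and of 46654 and 28497 UMIs in number 4. The rich spots of number 2 also held more RNA of other cells, with 91177 against 15545 CPM of the 8 hepatocyte genes in wild type and 47457 against 14943 CPM in knockout. The 8 neutrophil genes stood at 2850 against 459 and 2289 against 568 CPM and the 10 macrophage genes at 1467 against 496 and 1411 against 645 CPM in that order. Litter, depth and cell content cannot be told apart here.

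In knockout spleens Trim58 and Trim10 fell strongly, Ube2l6 and Bpgm fell less, and Bnip3l, Ube2o and Xpo7 did not pass the test. The section levels of Trim58, for example, were 50.4 and 29.6 CPM in wild types against 7.5 and 6.9 CPM in knockouts. Those of Bpgm overlapped, at 868.8 and 248.0 CPM in wild types against 151.1 and 282.3 CPM in knockouts. Its higher wild-type mean (558.4 against 216.7 CPM) rested on wild-type spleen 1. Of 18895 genes tested in spleen 20.6% were called, 6.79% lower and 13.8% higher, and C1qa stood at -10.79. The log2 differences between knockout and wild type were -2.26 ± 0.23 (SE, 2 sections per genotype) for Trim58 and -2.50 ± 0.38 for Trim10, with edgeR adjusted p of 6.03e-06 and 0.000239. Ube2l6 differed by -1.26 ± 0.34 and Bpgm by -1.09 ± 0.38 (edgeR adjusted p 0.0139 and 0.0464). Xpo7 at -0.50 ± 0.25, Ube2o at -0.41 ± 0.33 and Bnip3l at -0.19 ± 0.23 had adjusted p of 0.132, 0.337 and 0.521 in edgeR. The purchased wild-type spleen, outside this test, held 3.1 CPM of Trim58, below both knockouts. It held 15.8 CPM of Trim10, between the knockouts at 7.8 and 18.8 CPM. Its erythroid reference sum was 668 CPM, against 597 and 946 CPM in the knockouts. The part of erythroid content in the genotype difference was not tested.

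Only the falls of Trim58 and Trim10 held when each spleen was left out in turn in edgeR, with ranges of -2.56 to -1.79 and -3.43 to -1.46. Without wild-type spleen 1, Ube2l6 was at -0.27 (edgeR adjusted p 0.286) and Bpgm at 0.09 (edgeR adjusted p 0.770), and Bnip3l, Ube2o and Xpo7 turned to 0.33, 0.55 and 0.18, none past the threshold. Without knockout spleen 1 Ube2l6 and Bpgm were at -0.86 and -0.66 (edgeR adjusted p 0.122 and 0.284), and without knockout spleen 2 at -1.85 and -1.73 (edgeR adjusted p 0.0552 and 0.100), while only 240 genes were called in all. By DESeq2, which called 2.65% of genes lower and 16.1% higher (85.8% of its calls), only Trim58 passed (adjusted p 1.03e-10), Trim10 having 0.0608, Ube2l6 0.312 and Bpgm 0.437. Upper-quartile scaling moved the median of all genes from -0.08 to -0.37 and the share of calls that were higher from 67.0% to 21.4%, and with it all 7 genes were called lower beside 23.3% of all genes (6.34% higher). Bnip3l stood at -0.50, Ube2o at -0.74 and Xpo7 at -0.81 in that scaling. In the erythroid-rich spots alone Trim58 at -3.02, Trim10 at -2.43, Ube2l6 at -1.34 and Xpo7 at -1.40 were called, and Bpgm at -0.91 was not (edgeR adjusted p 0.126), beside 7.38% of all genes called lower and 11.7% higher. These spots were ranked within each section and were not alike in erythroid content. Their median share of erythroid reference UMIs was 1.12% and 0.386% in the wild types against 0.116% and 0.218% in the knockouts.

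Other erythroid genes moved with them. Of the 16 erythroid reference genes 15 fell in knockout spleens, with a median of -2.24 beside -1.09 for the 7 and -0.08 for all genes. Ermap and Rhd, which encode blood group proteins, stood at -2.63 and -3.12 on the log2 scale, and Slc4a1, the anion exchanger band 3, at -3.16. Of 9 erythroid regulators 6 fell, including Gata1 at -2.03 and Gfi1b at -2.05, and 1 rose, and of 3 globins tested Hba-a2 fell, at -1.42. Bnip3l, Ube2o and Xpo7 stood nearer to 0 than all 16, of which Slc25a37 had the smallest difference (-0.87). All 8 neutrophil genes fell (Camp at -4.50, Ltf at -3.07), their sum being 662 and 593 CPM in the wild types but 73.5 and 131 CPM in the knockouts, all 7 pancreas genes tested rose (Pnlip by 6.21), and of the macrophage list 2 of 10 rose (C1qb by 0.83, Vcam1 by 0.64) and Cd5l fell (-1.03). Of the remaining lists of other cells, 1 of 8 lymphocyte genes rose, 1 of 8 hepatocyte and 1 of 7 muscle, bone and cartilage genes fell. The part of these cells in the result was not tested. Without pancreas spots the values of Trim58 and Trim10 were -2.26 and -2.51.

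Genes of the wider clearance machinery were called in both directions, beside the 6.79% of all genes called lower and 13.8% higher. In knockout spleens 3 of 17 mitophagy and autophagy genes rose and 1 fell, Lamp1 of the lysosome membrane by 0.78 ± 0.18 and Atg5 by 0.72 ± 0.19 against the receptor Optn at -0.76 ± 0.19. Of 10 genes of the UBE2H and CTLH ligase 3 rose, among them Maea by 0.81 and Armc8 by 0.74, and Ranbp10 fell (-0.96). Of 14 other ubiquitin and proteasome genes 4 rose (Ube2k by 1.04) and none fell, and of 10 enucleation and nuclear condensation genes 3 rose (Rac1 by 1.44, Xpo1 by 1.09) and 1 fell. In glycolysis Pgk1 rose by 1.14 and the erythroid and liver pyruvate kinase Pklr fell (-1.65), with 2 of 11 genes called in each direction. Of the 9 interferon-stimulated genes tested, relevant because Ube2l6 also conjugates the ubiquitin-like protein ISG15, none passed in edgeR (1 at an unadjusted p under 0.05, 0 by DESeq2), and of 9 hypoxia genes P4ha1 rose and Egln3 fell. The medians of these lists lay between -0.21 and 0.31.

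**Figure D3:**
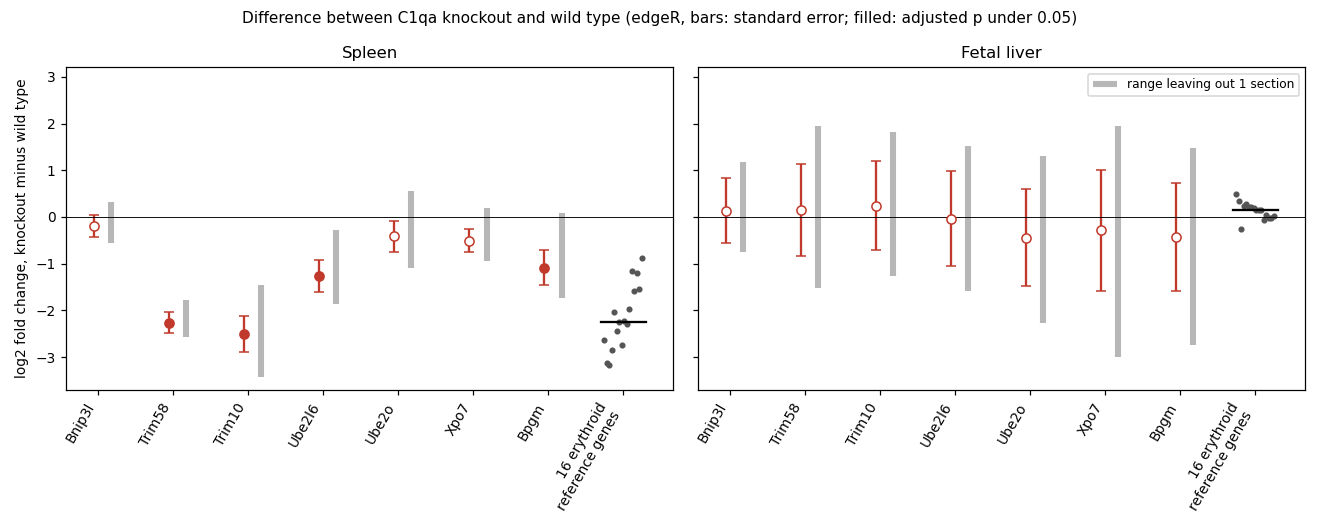
Log2 fold change between C1qa knockout and wild type in spleen (left) and fetal liver (right), with circles for the edgeR estimate, bars for its standard error, filled circles for an adjusted p under 0.05, grey bars for the range of estimates when 1 section is left out, and dots with a median line for the 16 erythroid reference genes. In spleen the grey bars of Trim58, Trim10 and Ube2l6 stay below 0, that of Ube2l6 reaching -0.27, and in fetal liver every grey bar crosses 0.

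In the fetal livers none of the 7 genes passed the test between genotypes, and neither did C1qa itself, at -10.25 ± 1.35. The log2 differences lay between -0.44 (Ube2o, SE 1.03) and 0.24 (Trim10, SE 0.95), with an adjusted p of 0.99982 in edgeR, and 0% of 18986 genes were called. At an unadjusted p under 0.05 there were 138 genes, and DESeq2 called 7. In this fit, which leaves the litters in the spread, the standard errors of the 7 genes were 0.70 to 1.29. With the litter number as a block, which reduced the standard errors of the 7 genes to 0.27 to 0.33, 157 genes passed and none of the 7. Trim58 stood there at 0.20 ± 0.28 and Trim10 at 0.27 ± 0.29 (edgeR adjusted p 0.919 for both) and Bpgm at -0.60 ± 0.31 (edgeR adjusted p 0.807). C1qa passed with the litter block (edgeR adjusted p 2.64e-69), in hepatocyte spots only (edgeR adjusted p 0.0211) and by DESeq2 (adjusted p 5.3e-10).

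The difference of the genotype effect between the tissues (fetal liver minus spleen) was 2.41 ± 1.29 for Trim58 and 2.77 ± 1.39 for Trim10 on the log2 scale, and edgeR called 0% of 19180 genes (2018 at an unadjusted p under 0.05, 8 by DESeq2). The medians in this fit were 2.46 over the 16 erythroid reference genes and 1.77 over 9 erythroid regulators, beside 0.69 over the 7 and -0.02 over all genes. With the litter term, Trim58 at 2.45 ± 0.36 and Trim10 at 2.77 ± 0.54 passed (edgeR adjusted p 0.000475 and 0.00547), where 1.74% of genes were called in this direction and 5.60% in the other. The other 5 genes did not pass in either fit, Ube2l6 being at 1.23 with adjusted p 0.123 in edgeR with the litter term.

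Fetal livers of the cross were compared with its spleens over both genotypes. Trim10, Xpo7, Ube2l6 and Ube2o were higher in fetal liver by 3.41 ± 0.88, 2.84 ± 0.79, 2.09 ± 0.68 and 1.97 ± 0.66 on the log2 scale (edgeR adjusted p 0.0111, 0.0161, 0.0300 and 0.0343), where 46.8% of 18987 genes were called, 25.7% higher and 21.1% lower. Trim58 at 1.87 ± 0.75, Bnip3l at 0.88 ± 0.41 and Bpgm at 0.67 ± 0.74 did not pass (edgeR adjusted p 0.0637, 0.100 and 0.458). All 16 erythroid reference genes were higher, with a median of 4.20 against 1.97 for the 7 and -0.11 for all genes. Upper-quartile scaling moved that last median to -0.52 and the share of calls that were higher from 54.8% to 41.3%, and then Ube2l6 and Ube2o did not pass. With the litter term all 7 passed, Bnip3l at 1.44, Bpgm at 1.504 and Trim58 at 2.60 (edgeR adjusted p 0.00023, 0.00571 and 0.000207), beside 29.4% of genes called higher and 32.5% lower. With hepatocyte spots of the fetal livers only, an alternative added after the data were seen, Trim58 and Bnip3l passed (edgeR adjusted p 0.00901 and 0.0367) and Bpgm did not (edgeR adjusted p 0.303), beside 24.3% of genes called higher and 27.9% lower. By DESeq2 Trim58 and Bnip3l passed as well (adjusted p 0.00227 and 0.0385) and Bpgm did not (DESeq2 adjusted p 0.221), beside 29.5% higher and 23.1% lower. With wild types alone, which leaves 2 sections per tissue, none passed (edgeR adjusted p 0.0984 to 0.808). Among the 8 fits that left out 1 section, Trim10 passed in all, Xpo7 in 5, and Ube2l6 and Ube2o in 3 each.

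Between the erythroid-rich spots of both tissues, an alternative chosen after the data were seen, Trim10 at 2.29 and Xpo7 at 2.27 were higher in fetal liver (edgeR adjusted p 0.0039 and 0.0106), while Ube2l6 at 1.195, Ube2o at 0.90 and Bpgm at -0.58 did not pass (edgeR adjusted p 0.0569, 0.188 and 0.396), 25.4% of genes being called higher and 16.9% lower. The median share of erythroid reference UMIs in these spots was 1.23% to 1.75% in the fetal livers and 0.116% to 1.12% in the spleens. Of the wider lists, 9 of 10 enucleation and nuclear condensation genes were higher in fetal liver over all spots, as were 8 of 11 glycolysis genes, 8 of 9 erythroid regulators, 11 of 14 other ubiquitin and proteasome genes, 5 of 10 genes of the UBE2H and CTLH ligase and 5 of 17 mitophagy and autophagy genes, and none was lower. Of 9 interferon-stimulated genes 6 were lower in fetal liver and none was higher.

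Set against the erythroid reference genes, the 7 genes took different places by tissue. Bpgm had 12.4 to 37.4 UMIs per 1000 UMIs of the reference genes in the 4 fetal livers of the cross, 45.2 in P8 and 93.03 in 89-week bone marrow, 125 in the purchased spleen, 192 and 143 in spleens of wild types, with the knockout spleens at 253 and 298. Trim10 kept to 13.1 to 44.3 in all 14 sections. The spleens of the cross lay above all its fetal livers in this ratio for 5 genes, Bnip3l, Trim58, Ube2l6, Ube2o and Bpgm, as did 63.5% of all genes (0.448% the reverse), so that this count stands close to the background. The ratio counts UMIs of all cells in a spot over a denominator that was lower in spleen. Knockout spleens were above both wild types for Bnip3l, Ube2l6, Ube2o, Xpo7 and Bpgm, as were 72.7% of all genes. In the fetal livers both knockouts were below both wild types for Ube2l6 and Ube2o, where 2.13% of genes were below and 0.195% above. In the spleens Trim10, with 13.1 and 19.9 in knockouts against 26.4 and 30.7 in wild types, was below, as were 0.148% of all genes. Trim58 overlapped in spleen (7.29 and 12.5 against 11.1 and 17.0).

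**Figure D4:**
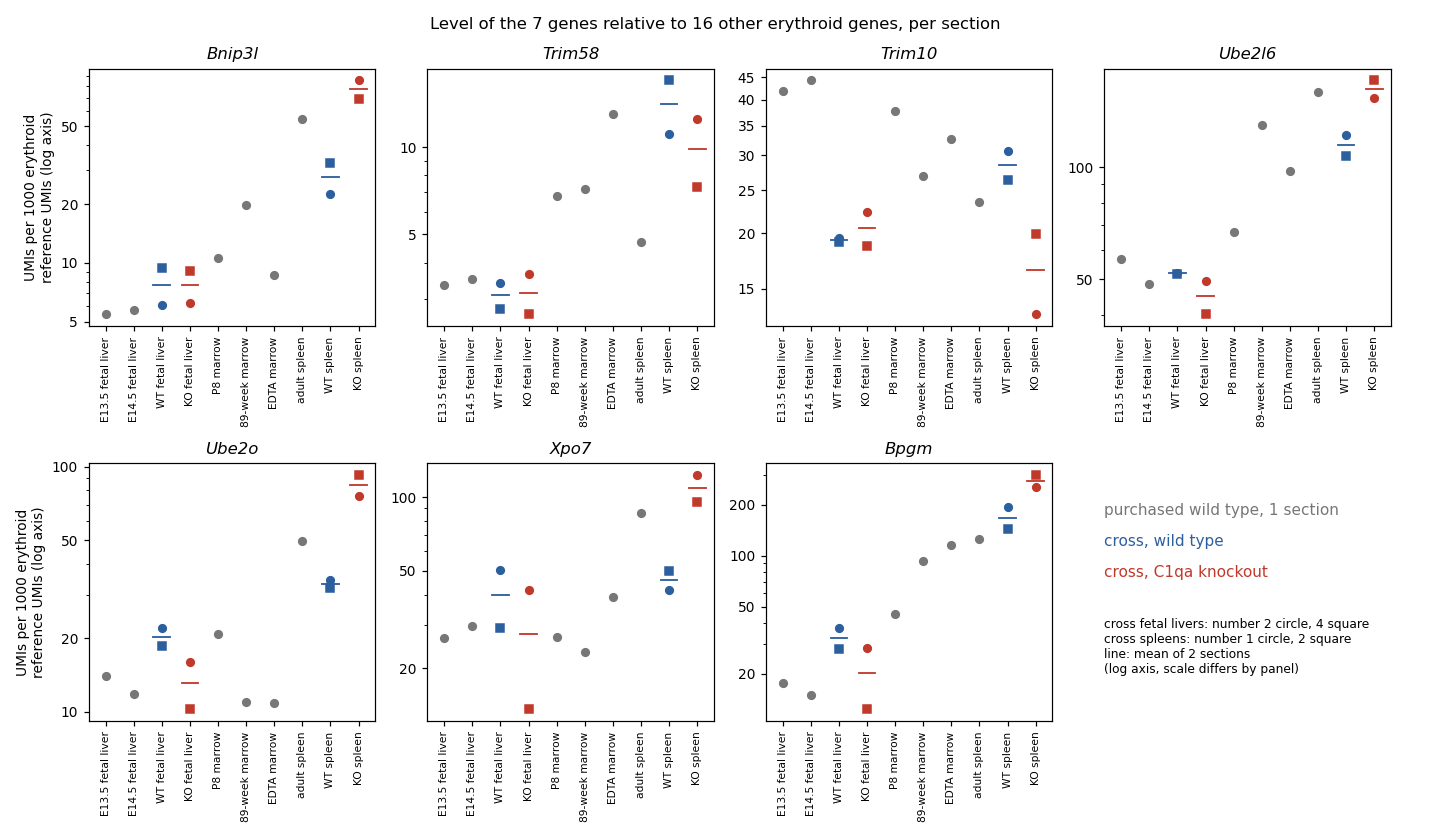
UMIs of each of the 7 genes per 1000 UMIs of the 16 erythroid reference genes (log axis) in each section, with grey for purchased sections, blue for wild types and red for knockouts of the cross. Bpgm climbs from 12.4 to 37.4 in the fetal livers of the cross to 143 to 298 in its spleens, whereas Trim10 stays between 13.1 and 44.3 in all sections.

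The patterns of the 7 genes across 13 sections, all but the EDTA-treated one, were compared among 10308 genes of at least 10 CPM on average, the 7 included. Purchased and cross sections were centred apart, and the nearest genes named are outside the 7. These correlations rest on 13 sections that share tissues and depth and are given as a description. Ube2l6 was most like Alas2, the first enzyme of erythroid haem synthesis (r = 0.992), and Hba-a2 (0.991). Trim10 was most like the membrane genes Slc4a1 (r = 0.986) and Epb42 (0.985). Trim58 was nearest to Btnl10 (0.964), Fn3k (0.958) and Dyrk3 (0.948). Xpo7 was nearest to Trak2 (0.962), Slc16a10 (0.957) and March2 (0.9495), and Ube2o to Cdr2 (0.957), Hbb-bs (0.949) and March2 (0.928). Bnip3l was nearest to Mxd1 (0.940), Rffl (0.920) and the transcription factor gene Foxo3 (0.913), and Bpgm to Mkrn1 (0.939), Slc48a1, a haem transporter (0.868), and Mxd1 (0.858). Among the 7 themselves the 21 pairs had r of 0.410 (Trim10 and Bpgm) to 0.951 (Ube2o and Xpo7), with a median of 0.752.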

How the data were processed

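The authors deposited raw UMI counts per gene and spot from Visium FFPE probe libraries, made with 10x Genomics software (Cell Ranger 4 in 4 file headers, Space Ranger 2.1.1, 3.1.2 and 4.0.1 in 1, 1 and 8), with mm10 named in the submitters' processing notes. The deposited barcode, feature and position tables hold other values, namely spot names, gene identifiers and array positions. Purchased sections were listed with 32589 features (304 deprecated) and all spots, cross sections with 19465 and in-tissue spots.

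In-tissue spots with at least 1000 genes, the study's minimum, were summed per section and given as CPM with 95% exact Poisson intervals. No doublet step applies to spots. Groups came from the sample labels. Differences were tested across all genes with edgeR 4.0.16 quasi-likelihood F tests (R 4.3.3, limma 3.58.1, filterByExpr, TMM factors), with a Benjamini-Hochberg adjusted p under 0.05 as the threshold and DESeq2 1.42.0 as an alternative. Sections are the replicates, and p-values measure the spread between them. Purchased sections (1 per group) were not tested. Erythroid-rich and erythroid-poor spots (25% each) were split by the share of UMIs in the 16 reference genes, with section as a block. The fetal liver numbers 2 and 4 are litters in the study: deviations from the genotype means correlated at 0.702 between same-numbered livers (18500 genes), against 0.0743 in spleen (18723 genes), where the numbers state no pairing. Replicate sections were not duplicates (lowest chi-square per degree of freedom 22.05). The tests were run on simulated counts with known changes first.

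The 7 genes, the lists and the tests were chosen with earlier results of these data known. Named genes are the 7, C1qa, the 3 genes of each list with the smallest adjusted p in spleen, and the 3 genes nearest to each of the 7 in pattern. Genes named for the rich and poor spots outside these were chosen after their values were seen. Promoters are from RefSeq (GRCm38.p6), both strands searched, and those of the other 3 genes were not analysed here. Some genes that the rule would name are not reported here.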

Additional observations from a re-analysis of the deposited data

Results flagged for a closer look

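Spots outside the tissue, which no comparison used, held UMIs of the 7 genes in the purchased sections: 37770 in the E14.5 fetal liver, 23543 in the E13.5 fetal liver, 8291 in the P8 bone marrow, 14111 in the 89-week bone marrow, 2871 in the adult spleen and 113 in the EDTA-treated bone marrow. They stand out because these spots carry no tissue by the positions of the authors. Spots outside tissue held 7.57% to 49.9% of all UMIs of a section, and the summed level of the 7 genes there was close to that in the tissue, for example 1682 against 1766 CPM in the 89-week bone marrow and 415 against 336 CPM in the adult spleen. The part of such UMIs in the values of in-tissue spots was not tested. The cross sections were given with in-tissue spots alone.

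The difference between C1qa knockout and wild type was unlike in fetal liver and spleen for Trim58 (by 2.45) and Trim10 (by 2.77). These are log2 values, fetal liver minus spleen, in the fit with the litter term (edgeR adjusted p 0.000475 and 0.00547). Both genes fell in the 2 knockout spleens and stood at 0.15 and 0.24 in the fetal livers. The purchased wild-type spleen, outside this fit, held 3.1 CPM of Trim58 and 15.8 CPM of Trim10. The fit without the litter term called neither, nor any other gene by edgeR (2018 at an unadjusted p under 0.05, 8 by DESeq2). In that fit the 16 erythroid reference genes had a median of 2.46, beside -0.02 over all genes.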

How the results depend on the processing

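Counts of genes past the edgeR threshold moved by over 1.5 times as follows. Between genotypes in spleen 3886 genes were called and 240 to 4972 with 1 section left out, the lowest without knockout spleen 2. Between genotypes in fetal liver 0 were called, 7 by DESeq2, 157 with the replicate block, 1 in hepatocyte spots only and 0 to 109 with 1 section left out. For the difference of the genotype effect between tissues 0 were called, 8 by DESeq2, 1409 with the litter as a block and 0 to 2 with 1 section left out. Between fetal liver and spleen 8883 were called and 5727 to 12415 with 1 section left out, the lowest counts being without wild-type spleen 1 and without wild-type spleen 2 (5855). Between erythroid-rich and erythroid-poor spots of the spleens 2083 were called, 1084 after thinning each spot to 2000 UMIs and 1118 to 1697 with 1 section left out. In the fetal livers 2454 were called, 4208 by DESeq2, 782 after thinning and 199 to 2975 with 1 section left out, among them 963 without knockout fetal liver 2.

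Of the log2 differences of the 7 genes, 391 alternatives kept direction and side of the threshold, 46 fell short of it, 25 newly passed it and 41 turned sign. Signs turned in the fetal liver genotype difference for Ube2l6 with upper-quartile factors (0.11) and, in hepatocyte spots, for Trim58 (-0.037) and Trim10 (-0.0016). They turned in the difference between tissues for Ube2o with upper-quartile factors (0.41) and for Xpo7 with the litter term (-0.0032), and between fetal liver and spleen for Bpgm in erythroid-rich spots (-0.58). With 1 section left out, the genotype difference in spleen ranged from -0.55 to 0.33 for Bnip3l, -1.09 to 0.55 for Ube2o, -0.95 to 0.18 for Xpo7 and -1.73 to 0.090 for Bpgm. In fetal liver it ranged from -0.75 to 1.19 for Bnip3l, -1.52 to 1.95 for Trim58, -1.27 to 1.82 for Trim10, -1.58 to 1.52 for Ube2l6, -2.27 to 1.31 for Ube2o, -2.99 to 1.95 for Xpo7 and -2.74 to 1.47 for Bpgm. The difference between tissues ranged from -0.55 to 1.32 for Bnip3l, -0.29 to 2.74 for Ube2l6, -1.85 to 1.67 for Ube2o, -2.47 to 2.40 for Xpo7 and -1.63 to 2.52 for Bpgm, and that of fetal liver against spleen from -0.28 to 1.12 for Bpgm. The causes of these shifts were not tested. A fit with 1 section in a group assumes that it varies like the other groups.

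The replicate block in spleen, where the numbers state no pairing, called 4968 genes and the same 4 of the 7. Of 98 section levels, 28 moved when globin UMIs were left out of the totals and 0 when all in-tissue spots were summed. A level of the cross counted as moved beyond the SD of its 2 replicate sections. A purchased level did so outside its 95% Poisson interval, which covers counting error only. In the cross only Bnip3l of knockout fetal liver 2 moved (89.4 to 112 CPM, SD 15.9 CPM), and the rest were purchased levels. Upper-quartile factors moved the median of all genes in the fetal liver genotype difference to 0.22 and in the difference between tissues to 0.49. Sections of purchased mice have no replicate.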
